A study of Mus musculus with 40 samples.

Results

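Kinesin heavy chains and kinesin-2 subunits are the subject here, taken as every detected array probe annotated to Kif5a, Kif5b, Kif5c, Kif3a, Kif3b, Kif3c, Kifap3, Kif1a, Kif1b or Kif21a. These 10 genes had 22 annotated probes, of which 20 were detected, out of 13589 detected probes among 25697 on the array. The 20 probes covered 9 genes and were detected on all 40 arrays. Both Kif5b probes (ILMN_2660650 and ILMN_2768396) were above background on 0 of 40 arrays, so the ubiquitous kinesin-1 heavy chain has no level here.

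Total RNA from the hippocampus of 12-month-old mice was hybridised to Illumina Ref-8 arrays, each taking 1 mouse. The labels list 12 inbred, non-transgenic mice and 28 mice with an APP transgene (Tg), which encodes the amyloid precursor protein. The inbred mice were 4 B6, 4 DBA (dba2 in the labels) and 4 SJL. The Tg mice had mixed backgrounds. There were 6 B6-rich mice at 62.5% B6 and 37.5% SJL, 6 SJL-rich mice at 69% SJL and 31% B6, and 6 SJL-richest mice at 84% SJL and 16% B6. A further 3 mice had 50% DBA with 42% SJL and 8% B6. The last 7, called DBA-rich, had 75% DBA with 16% B6 and 9% SJL. All Tg mice carried the transgene, so no Tg background has a non-transgenic littermate group, and the labels do not name the promoter driving the transgene. Each Tg mouse has a log10 amyloid-beta 40 (Abeta40) level of the guanidine-soluble fraction, with a mean of 4.60 ± 0.41 (SD, n = 28).

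Kinesins are motor proteins that walk along microtubules and carry vesicles, organelles and RNA out along axons and dendrites. Kinesin-1 is built from heavy chains, which hold the motor (Kif5a, Kif5b, Kif5c), and light chains, which bind cargo. Kinesin-2 joins Kif3a to a partner motor, Kif3b or Kif3c, and to the non-motor subunit Kifap3, and it serves both neuronal transport and the building of cilia. Kif1a and Kif1b are kinesin-3 motors that carry synaptic vesicle precursors and mitochondria, and Kif21a is a kinesin-4 motor that restrains microtubule growth.

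Tissue and array quality bear on every value below. Arrays detected 41.5% to 50.0% of probes and had median deposited signals of 18.2 to 29.3. By running number, arrays 33 to 40 hold all inbred SJL arrays and detected 41.5% to 44.1%. The other inbred arrays detected 47.3% to 48.8%. The hippocampal markers Prox1, Wfs1, Neurod2 and Dkk3 and the neuronal markers Syt1, Rbfox3, Camk2a, Slc17a7 and Gad1 were detected on all 40 arrays. So were the thalamic markers Tcf7l2, Prkcd and Slc17a6. Summed signal of choroid plexus markers varied widely, from 1267 in a B6-rich to 49206 in a later DBA-rich Tg mouse. Within inbred B6 it ran from 5172 to 47484. The tissue taken with the hippocampus may thus differ between mice, which was not tested. Arrays numbered 1 to 16 stood apart from arrays 17 to 40 on a first principal component that held 35.2% of the variance. The earlier set held the B6-rich, SJL-richest and 50% DBA mice and 1 DBA-rich mouse, and the later set held the rest. Group comparisons were therefore made within a set, while the Abeta40 slopes span both sets. The 2 deposited tables order the inbred arrays differently: they disagree on 8 of 12 inbred arrays, 6 of which change strain, and agree on all 28 Tg arrays. Inbred results below follow the running number of each sample title. Values by the other order and over the 2 arrays per strain on which both tables agree stand beside the inbred calls of kinesin probes.

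Among inbred strains the clearest pattern was in Kif3a, which was lower in SJL than in B6 or DBA on both of its probes over all 12 inbred arrays, and on 1 of them over the agreed arrays. Several other members were modestly lower in DBA: Kif5a, Kif5c, Kif3b and Kifap3 each had at least 1 probe that passed the test against B6 or SJL. In limma with Benjamini-Hochberg adjustment at 0.05, 4 of the 20 probes differed between DBA and B6, all lower in DBA, beside 12.3% of all probes tested. Between DBA and SJL 8 probes differed, 3 higher and 5 lower in DBA, beside 11.2% of all probes. Between SJL and B6 3 probes differed, all lower in SJL, beside 13.5% of all probes. These calls are 20%, 40% and 15% of the 20 probes. They come from 3, 5 and 2 genes, since several genes have more than 1 probe. Kif1b was called in both directions for DBA against SJL. The median log2 difference of the 20 probes was -0.09 for DBA minus B6, -0.17 for DBA minus SJL and -0.02 for SJL minus B6, against 0.04, 0.01 and 0.03 over all probes.

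The counts depend on the order of the inbred arrays. On the 2 agreed arrays per strain, 2, 3 and 1 of the 20 probes passed in the same 3 comparisons. With the other deposited table, read by accession, 0 of the 20 passed in each, while 78, 85 and 0 of all probes passed. Leaving out DBA replicate 1, B6 replicate 3 or B6 replicate 4 left 2 calls for DBA against B6. Without DBA replicate 2 there were 3 calls, of which 1 was among the original 4 and 1, Kif3c ILMN_2590729, was higher in DBA (0.24, adjusted p = 0.0466). Leaving out DBA replicate 1 left 5 for DBA against SJL.

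**Figure D1:**
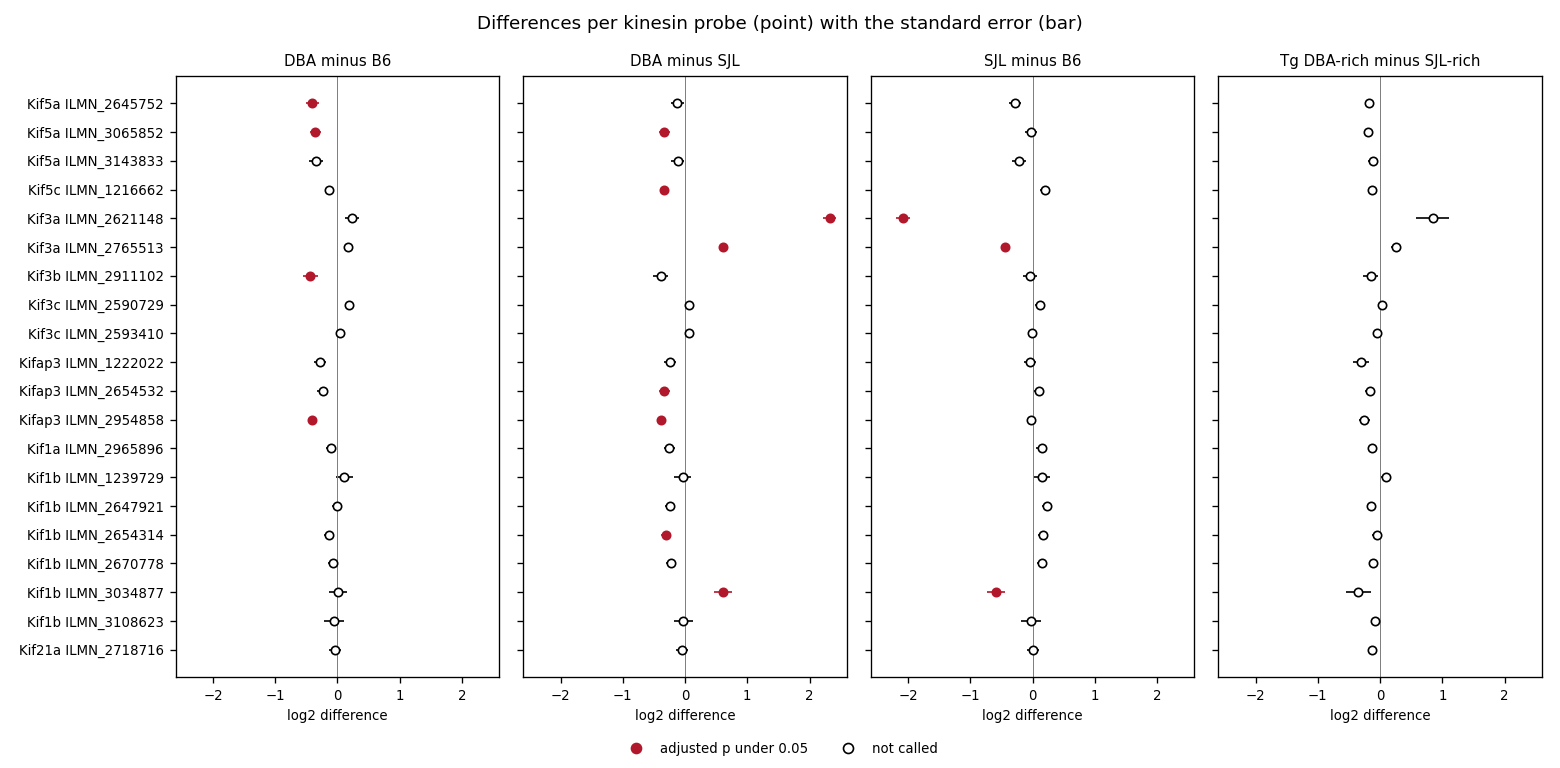
Log2 difference of each of the 20 kinesin probes (point) with its standard error (bar) in 3 inbred comparisons (n = 4 mice per strain) and between DBA-rich and SJL-rich Tg mice of the later arrays (n = 6 each); filled points passed an adjusted p of 0.05 in limma. The Kif3a probe ILMN_2621148 lies farthest from 0 in the DBA minus SJL and SJL minus B6 panels, at 2.32 and -2.08, and no point is filled in the Tg panel.

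The subunits of the kinesin-2 complex come first. The sequences before the start sites of Kif3a, Kif3b and Kifap3 are shown because these 3 subunits work in 1 complex and yet Kif3a was higher, and Kif3b and Kifap3 had negative differences, in DBA minus SJL. Each is the 250 bases before the RefSeq gene start on the plus strand of GRCm38.p6: Kif3a at chr11:53567119-53567368, Kif3b at chr2:153291166-153291415 and Kifap3 at chr1:163779333-163779582. Capitals mark matches, on either strand, to the GC box letters GGGCGG, the CCAAT box letters CCAAT and the NRF1 core letters TGCGCA.
Kif3a: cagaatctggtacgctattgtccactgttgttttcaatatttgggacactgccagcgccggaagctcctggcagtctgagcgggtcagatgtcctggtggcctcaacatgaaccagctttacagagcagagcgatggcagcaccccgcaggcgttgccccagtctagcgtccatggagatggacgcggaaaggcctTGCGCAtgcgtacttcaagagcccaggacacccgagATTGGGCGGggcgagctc
Kif3b: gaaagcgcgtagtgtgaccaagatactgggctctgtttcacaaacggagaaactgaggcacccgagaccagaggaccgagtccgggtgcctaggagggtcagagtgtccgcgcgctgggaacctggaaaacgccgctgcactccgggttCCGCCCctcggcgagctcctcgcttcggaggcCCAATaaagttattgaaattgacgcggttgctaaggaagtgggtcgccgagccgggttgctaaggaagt
Kifap3: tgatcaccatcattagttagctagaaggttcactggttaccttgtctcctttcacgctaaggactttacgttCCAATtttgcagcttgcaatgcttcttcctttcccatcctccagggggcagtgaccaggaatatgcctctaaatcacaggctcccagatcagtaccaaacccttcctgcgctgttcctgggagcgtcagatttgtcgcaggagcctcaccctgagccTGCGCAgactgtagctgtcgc
The Kif3a window holds all 3 motifs, with its CCAAT and GC box matches overlapping. The Kif3b window holds the GC and CCAAT boxes and the Kifap3 window the CCAAT box and the NRF1 core. Of 32851 RefSeq promoters of the same length, 32.7% hold the GC box letters, 33.8% the CCAAT letters and 6.43% the NRF1 core letters, so only the last is uncommon. These are matches of letters in the reference genome and no binding was measured. The DBA and SJL sequences were not looked at, so the windows cannot bear on the strain difference. Of the 10 genes, 8 had a promoter entry.

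Kif3a encodes the motor subunit that every kinesin-2 heterotrimer shares. On probe ILMN_2621148 its log2 signal was 10.82, 10.56, 10.83 and 10.72 in the 4 B6 mice. The DBA mice gave 10.95, 10.95, 10.83 and 11.14. The SJL mice gave 8.58, 8.40, 8.72 and 8.89. All 4 SJL mice were below every B6 and DBA mouse, and the B6 and DBA mice overlapped. SJL was lower than B6 by 4.24-fold (log2 difference -2.08, adjusted p = 1.91e-08, limma) and DBA was higher than SJL by 5.00-fold (log2 difference 2.32, adjusted p = 6.35e-09).

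The second Kif3a probe, ILMN_2765513, gave the same order with a smaller difference. Its log2 signal was 11.24, 11.21, 11.31 and 11.17 in B6 and 11.29, 11.56, 11.39 and 11.39 in DBA. In SJL it was 10.80, 10.69, 10.80 and 10.89. SJL again lay below all 8 other inbred mice, by 1.36-fold against B6 (log2 difference -0.44, adjusted p = 0.00111) and 1.53-fold against DBA (0.61, adjusted p = 6.76e-05). The 2 probes thus differ in the size of the change. A change in transcript amount and a change in how well a strain's transcript binds a probe cannot be told apart from these signals.

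On the 2 agreed arrays per strain the ILMN_2621148 differences were -1.97 for SJL minus B6 (adjusted p = 0.000181) and 2.15 for DBA minus SJL (adjusted p = 0.000131). Read by accession from the other table, the same probe gave 8.60, 8.38, 10.81 and 10.69 for B6, 10.80, 10.58, 10.93 and 10.92 for DBA, and 10.75, 11.05, 8.71 and 8.81 for SJL. In that order the low signals fall on 2 mice labelled B6 and 2 labelled SJL, and the strain differences were 0.21 (adjusted p = 0.950) and 0.98 (adjusted p = 0.468). The second probe, ILMN_2765513, passed neither test on agreed arrays, at -0.40 (adjusted p = 0.164) and 0.58 (adjusted p = 0.0545), nor by accession, at 0.058 (adjusted p = 0.943) and 0.27 (adjusted p = 0.412). Both tables hold the same inbred arrays, so 4 are low and 8 are high in either order, and this count cannot decide between the orders. The 2 SJL mice on which the tables agree are low.

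Kif3a in the Tg mice, whose labels the 2 tables share, was split by 1 wide gap on ILMN_2621148. No array of the 40 lay between 8.90 and 10.10, a gap of 1.20. Below it were 6 Tg mice at 8.54 to 8.90, beside the inbred SJL range of 8.40 to 8.89. Another 13 Tg mice lay at 10.10 to 10.44, a span that holds no inbred mouse. The other 9 lay at 10.71 to 11.15, where the inbred DBA mice and all B6 mice but 1 also lay. The remaining B6 mouse, at 10.56, lay between the 2 upper spans. These spans were set after the values were seen. The upper 2 are less clearly separate, since the next largest gap over the 40 arrays was 0.149, from 10.56 to 10.71. On ILMN_2765513 no wide gap was seen. Its largest over the 40 arrays was 0.176, with 38 arrays below and 2 above.

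Each background held its own mix of these spans on ILMN_2621148. Of the 6 SJL-richest mice, 4 were low (8.88, 8.84, 8.80 and 8.90) and 2 intermediate (10.44 and 10.34). Of the 6 SJL-rich mice, 1 was low at 8.70, 4 were intermediate at 10.10, 10.11, 10.21 and 10.16, and 1 was high at 10.93. The B6-rich mice split in the same way, with 8.54, then 10.38, 10.37, 10.32 and 10.35, then 11.15. The SJL-rich and B6-rich groups therefore each held mice in all 3 spans. All 3 mice at 50% DBA were intermediate (10.37, 10.25 and 10.35). All 7 DBA-rich mice were high, at 11.01 in the earlier array and 11.08, 10.71, 10.88, 10.93, 10.86 and 10.78 in the later ones. No mouse with DBA in its background was low.

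Group means hide this split, and no comparison between Tg backgrounds passed for Kif3a. DBA-rich exceeded SJL-rich mice of the later arrays by 0.84 on ILMN_2621148 (adjusted p = 0.0788) and by 0.26 on ILMN_2765513 (adjusted p = 0.0784, or 0.0322 with an intensity trend and robust variances). B6-rich minus SJL-richest was 0.82 (adjusted p = 0.313) and 50% DBA minus SJL-richest 0.96 (adjusted p = 0.346). The DBA minus SJL difference was smaller in Tg than in inbred mice, by -1.48 ± 0.34 (SE) on ILMN_2621148 (adjusted p = 0.0552, limma). This test was added after the values were seen and called 0.397% of all probes and 0 of the 20. The Tg groups hold 75% DBA and 69% SJL, so theirs is not a contrast of pure strains. Its SE pools groups of unlike spread, with an SD of 0.73 in SJL-rich and 0.13 in later DBA-rich mice. The 2 Kif3a probes moved together from mouse to mouse, with Pearson's r of 0.83 over 28 Tg mice and 0.95 over 12 inbred mice, points that share arrays and normalization.

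**Figure D2:**
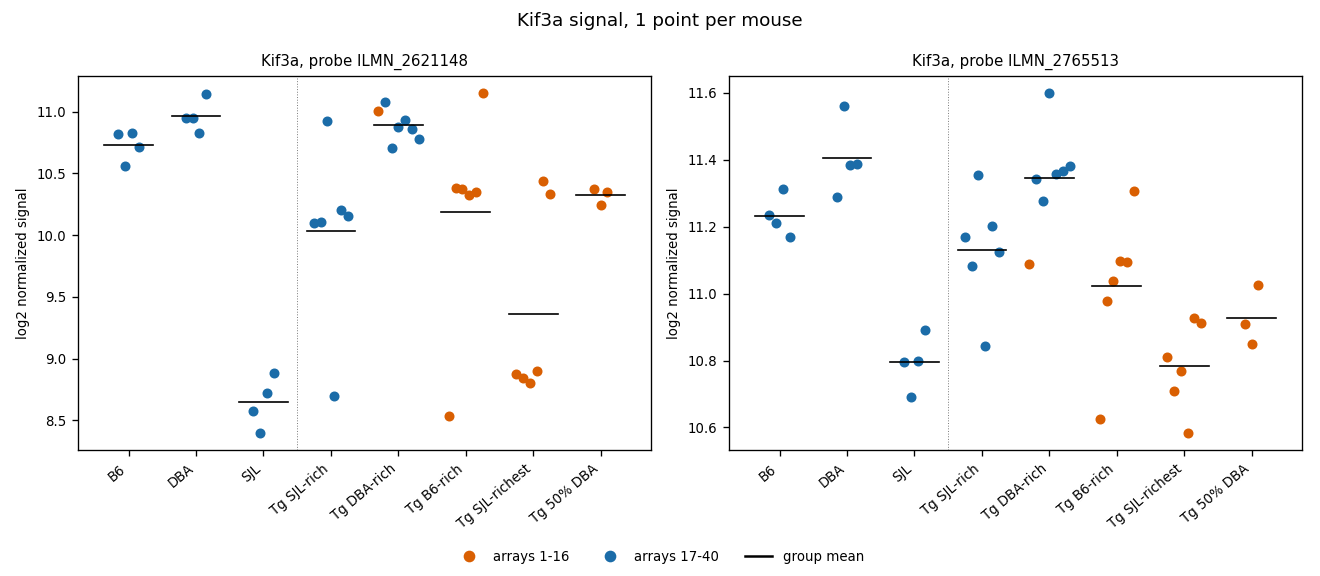
Log2 normalized signal of the 2 Kif3a probes in each of 40 mice (1 point each), by strain or Tg background, coloured by array set, with a bar at the group mean. On ILMN_2621148 the SJL mice and 6 Tg mice lie at or under 8.90, no mouse lies between 8.90 and 10.10, and all 7 DBA-rich mice lie at 10.71 or above.

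Genes near Kif3a were examined next, a step also added after the values were seen. Of the 20 protein-coding genes on each side of Kif3a in RefSeq, 25 of 40 had a tested probe, 33 probes in all. In SJL, 3 of these probes (9.09%) were lower than in both other strains and 0 were higher, beside 4.78% of all probes that differed from both in either direction. Acsl6, an acyl-CoA synthetase that activates long-chain fatty acids, averaged 10.10 in B6, 10.21 in DBA and 7.93 in SJL on probe ILMN_1236666, and its SJL minus B6 difference was -2.17. Its other 2 probes differed by 0.05 and -0.06 and were not called. Gdf9, a secreted growth factor best known from the oocyte, was detected in all 4 B6 and 4 DBA mice and in 0 of 4 SJL mice, so its signal was at least 1.65-fold higher in B6 than in SJL, taking the lowest detected signal of each SJL array as its floor. Shroom1, a relative of actin-binding shape regulators, was lower by a difference of -0.42. Across 28 Tg mice the Acsl6 and Gdf9 probes followed Kif3a ILMN_2621148 with r of 0.98 and 0.94, the Gdf9 value including signals below detection.

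Kif3b is the usual motor partner of Kif3a. Its single probe, ILMN_2911102, gave log2 signals of 7.41, 7.30, 7.56 and 7.27 in B6 mice. In DBA mice it gave 6.90, 6.84, 7.04 and 7.03, and in SJL mice 7.08, 7.25, 7.36 and 7.69. Every DBA mouse was below every B6 and SJL mouse. Against B6 the log2 difference was -0.43 (1.35-fold lower, adjusted p = 0.0299, limma), and against SJL it was -0.39 (adjusted p = 0.0526). The call against B6 was lost without B6 replicate 1, B6 replicate 3, DBA replicate 1 or DBA replicate 2, with differences of -0.42, -0.38, -0.42 and -0.39 and adjusted p-values of 0.0715 to 0.0870. On agreed arrays the difference was -0.55 (adjusted p = 0.0976) and by accession -0.18 (adjusted p = 0.688).

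Kif3c, the alternative partner of Kif3a in neurons, showed no call in any comparison. Its probe ILMN_2593410 averaged 11.87 in B6, 11.91 in DBA and 11.85 in SJL, and the Tg means ran from 11.89 to 11.96. Its other probe, ILMN_2590729, averaged 9.08, 9.26 and 9.19 in the same strains. The 2 Kif3c probes hardly moved together (r = 0.06 over 40 arrays with array-set means removed), unlike those of Kif3a, at 0.92.

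Kifap3 is the non-motor subunit that links kinesin-2 to cargo. On its brightest probe, ILMN_2954858, the B6 mice gave 11.26, 11.28, 11.18 and 11.25. The SJL mice gave 11.25, 11.24, 11.15 and 11.25, and the DBA mice 10.92, 10.91, 10.71 and 10.80. The B6 and SJL mice overlapped and all 4 DBA mice lay below them. The DBA difference was -0.40 against B6 (1.32-fold lower, adjusted p = 0.000820) and -0.39 against SJL (1.31-fold lower, adjusted p = 0.00126), and both calls held without any single array. On agreed arrays they were -0.30 (adjusted p = 0.145) and -0.28 (adjusted p = 0.167), and by accession -0.13 (adjusted p = 0.679) and 0.18 (adjusted p = 0.516), the latter in the opposite direction.

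The other Kifap3 probes pointed the same way and moved with the first, with r of 0.81 to 0.90 between probes over 40 arrays with array-set means removed. On ILMN_2654532 DBA was lower than SJL by 1.26-fold (log2 difference -0.33, adjusted p = 0.0270), and this call was lost without DBA replicates 1, 3 or 4 or SJL replicates 2 or 4, with adjusted p-values of 0.0522 to 0.0715. By accession this difference was 0.16, in the opposite direction and not called, on agreed arrays it was -0.22 (adjusted p = 0.329), and in the methods' t-test its adjusted p was 0.0826. On ILMN_1222022 the differences were -0.28 against B6 and -0.24 against SJL, neither of which passed.

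In Tg mice the Kifap3 probe ILMN_2954858 gave 10.57, 10.51, 10.70, 10.98, 10.94 and 10.93 in the later DBA-rich mice. The later SJL-rich mice lay at 10.94 to 11.12. The 2 ranges overlapped and the difference was -0.25 (adjusted p = 0.106). With runs of 8 consecutive arrays as a block it was -0.49 (adjusted p = 0.00996). That value rests on the DBA-rich mice at 10.57 and 10.51, which alone share a run with SJL-rich mice. The 3 mice at 50% DBA gave 10.02, 9.94 and 10.00, below all SJL-richest mice (10.06 to 10.50) and all B6-rich mice (10.04 to 10.43). Those differences, -0.28 (adjusted p = 0.222) and -0.31 (adjusted p = 0.119), did not pass.

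The kinesin-1 heavy chains follow. Kif5a, the neuronal heavy chain mutated in human spastic paraplegia, was lower in DBA than in B6. On ILMN_3065852 the B6 mice gave 12.92, 12.88, 12.91 and 12.95 and the SJL mice 12.76, 12.89, 12.97 and 12.93. The DBA mice gave 12.41, 12.44, 12.54 and 12.83. All DBA mice were below all B6 mice, while the highest DBA mouse lay inside the SJL range. The difference was -0.36 ± 0.09 (SE) against B6 (1.28-fold lower, adjusted p = 0.0194, limma) and -0.33 against SJL (1.26-fold lower, adjusted p = 0.0307). With runs of 8 arrays as a block the latter was -0.26 (adjusted p = 0.117), and in the methods' t-test the adjusted p-values were 0.0812 and 0.148.

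On the dimmer Kif5a probe ILMN_2645752 the B6 mice gave 7.95, 8.08, 8.19 and 8.16. The DBA mice gave 7.72, 7.60, 7.57 and 7.87 and the SJL mice 7.76, 7.57, 7.92 and 8.01. DBA and B6 did not overlap, and SJL overlapped both. The DBA minus B6 difference was -0.41 ± 0.10 (SE) (1.33-fold lower, adjusted p = 0.0203), and the DBA minus SJL difference was -0.13 (adjusted p = 0.532). The last probe, ILMN_3143833, gave -0.34 for DBA minus B6 (adjusted p = 0.0655).

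Each Kif5a call was lost when certain single arrays were left out. For DBA minus B6, ILMN_3065852 lost its call without DBA replicate 1, DBA replicate 2 or B6 replicate 4 (-0.31, -0.32 and -0.35, adjusted p = 0.0543 to 0.0625). ILMN_2645752 lost its call without DBA replicates 2 or 3 or B6 replicates 3 or 4 (-0.37 to -0.39, adjusted p = 0.0575 to 0.0608). For DBA minus SJL, ILMN_3065852 lost its call without DBA replicates 1, 2 or 3 or SJL replicates 2, 3 or 4 (adjusted p = 0.0629 to 0.0962). On agreed arrays the DBA minus B6 differences were larger, at -0.52 on ILMN_2645752 (adjusted p = 0.0334) and -0.50 on ILMN_3065852 (adjusted p = 0.0292), and by accession they were -0.10 (adjusted p = 0.824) and -0.17 (adjusted p = 0.527). For DBA minus SJL, ILMN_3065852 gave -0.53 on agreed arrays (adjusted p = 0.0271) and -0.08 by accession (adjusted p = 0.769).

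Among later Tg mice Kif5a ILMN_3065852 lay at 12.55 to 12.68 (median 12.61) in DBA-rich and at 12.70 to 12.94 (median 12.81) in SJL-rich mice. The 2 groups did not overlap. The difference was -0.20 with an adjusted p of 0.0584, the smallest among the 20 probes in that comparison. It passed with an intensity trend and robust variances (adjusted p = 0.0157), in the methods' t-test (adjusted p = 0.0444) and over all Tg mice with a term for array set (adjusted p = 0.0141). It did not pass under the other 6 settings, which include the run block (-0.23, adjusted p = 0.221) and the value table (-0.16, adjusted p = 0.158). Only some DBA-rich mice share a run with SJL-rich mice, and the run block value rests on those. The summed signal of neuronal markers also separated these groups, at 26851 to 28647 in DBA-rich and 28763 to 36818 in SJL-rich mice, with 2 of 5 markers lower in DBA-rich and a median marker difference of -0.08. The part of these markers in the Kif5a difference was not tested.

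Kif5c, the other heavy chain enriched in neurons, was lower in DBA than in SJL. Probe ILMN_1216662 gave 12.81, 12.65, 12.85 and 12.91 in DBA and 13.20, 13.15, 13.03 and 13.16 in SJL. The B6 mice lay between, at 12.91, 12.90, 12.95 and 13.01. DBA and SJL did not overlap, with a difference of -0.33 (1.26-fold lower in DBA, adjusted p = 0.00669), and DBA and B6 overlapped slightly (difference -0.14, adjusted p = 0.259). The call against SJL held without any single array. On agreed arrays the difference was -0.36 (adjusted p = 0.122), by accession -0.08 (adjusted p = 0.704) and between the later DBA-rich and SJL-rich Tg mice -0.13 (adjusted p = 0.192).

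Some cell type markers also differed in the DBA contrasts, most broadly those of oligodendrocytes against B6. All 6 measured oligodendrocyte markers (of 7 listed) were lower in DBA than in B6, with a median log2 difference of -0.70. Their summed linear signal was 22451 to 30523 in DBA, 34778 to 40946 in B6 and 22726 to 34233 in SJL. Among the 5 measured neuronal markers (of 8 listed) 1 was lower in DBA than in B6 and 2 lower than in SJL, with sums of 26810 to 29702 in DBA, 29783 to 30034 in B6 and 34510 to 38110 in SJL. The summed neuronal signal was thus lowest in DBA and highest in SJL, without overlap. Median differences of the single neuronal markers were smaller, at -0.11 for DBA minus B6, -0.04 for DBA minus SJL and 0.03 for SJL minus B6. Over all probes these medians were 0.04, 0.01 and 0.03. Of 6 measured microglial markers (of 7 listed) 2 were lower in DBA than in B6, with sums of 1737 to 2242 in DBA, 2661 to 3344 in B6 and 1807 to 2311 in SJL. Against SJL, 2 of the 6 oligodendrocyte and 0 of the 6 microglial markers were lower. Of 6 astrocyte markers 1 was higher in the comparison with B6 and 1 in that with SJL, and of 5 measured choroid plexus markers 0 passed. Of 2 measured vessel markers 0 passed. Of 4 measured hippocampal markers 1 was lower against B6, and of 3 thalamic markers 1 was lower against SJL. The part of these markers in the kinesin differences was not tested. In RNA of whole tissue, fewer cells of a type and less RNA per cell cannot be told apart.

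**Figure D3:**
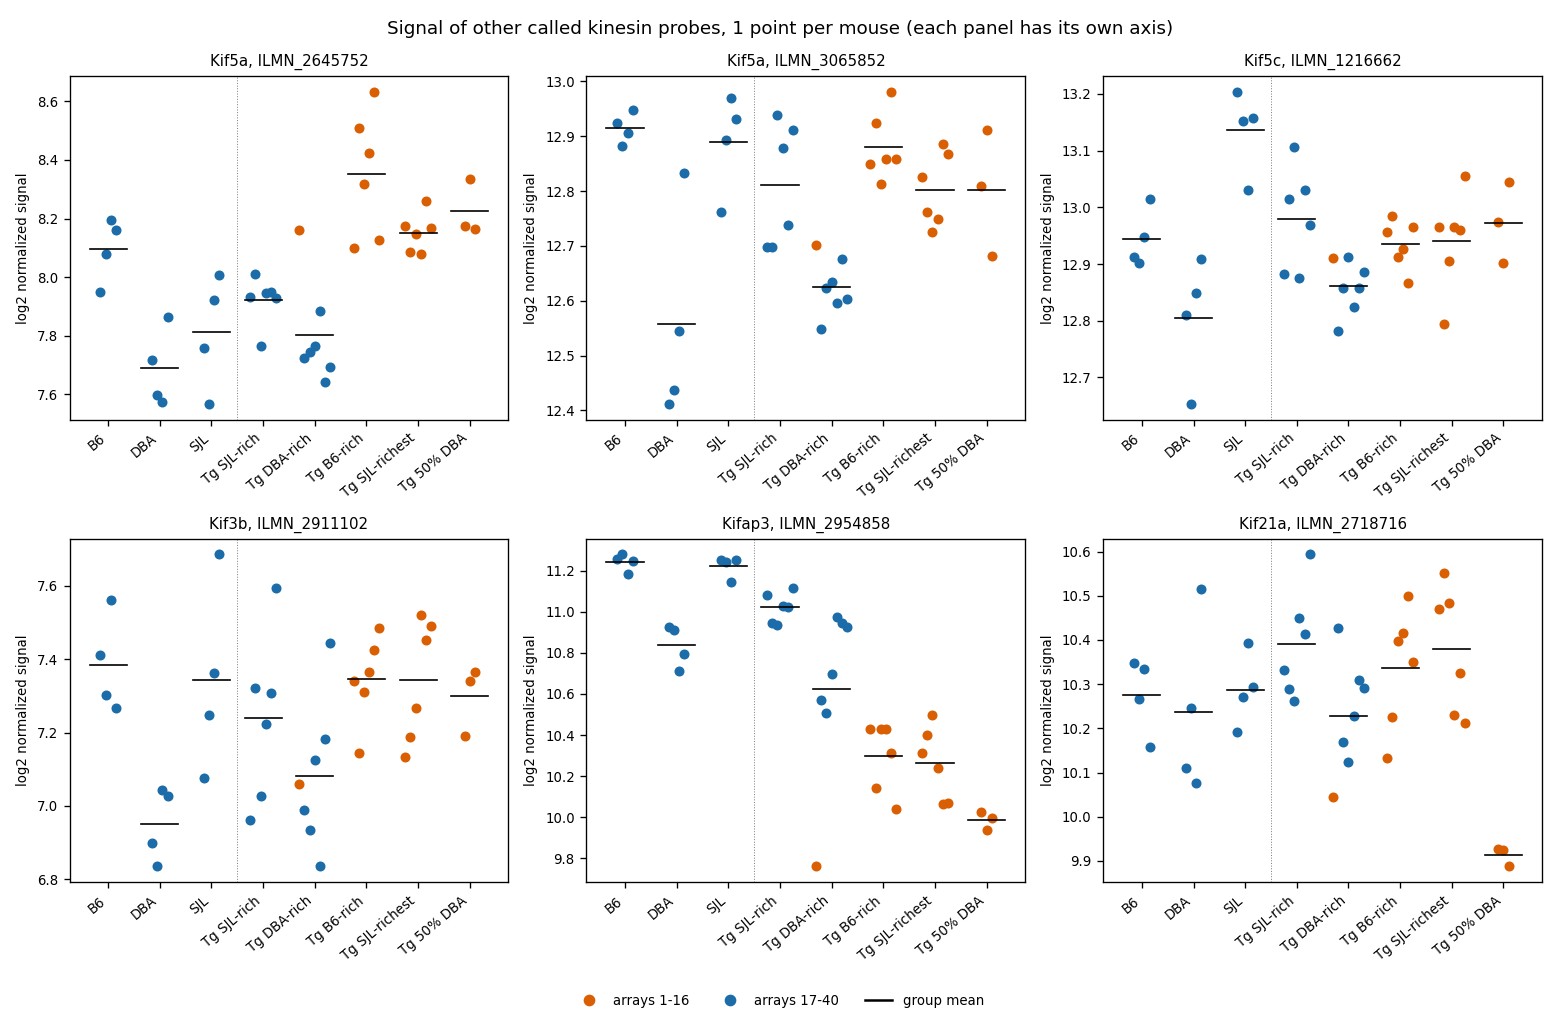
Log2 normalized signal of 6 other kinesin probes in each mouse (1 point each), by strain or Tg background and coloured by array set, with a bar at the group mean and a separate axis per panel. Among inbred mice all DBA mice lie below all others for Kif3b and Kifap3, and the 3 mice at 50% DBA lie lowest for Kif21a, at 9.89 to 9.93.

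Of the kinesin-3 motors, Kif1a, which carries synaptic vesicle precursors, showed no call in any comparison. Its probe ILMN_2965896 averaged 8.90 in B6, 8.79 in DBA and 9.04 in SJL, and the Tg means ran from 8.81 to 9.12. The DBA mice lay below the SJL mice without overlap, with a difference of -0.25 (adjusted p = 0.0812).

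Kif1b, which carries mitochondria and synaptic vesicle precursors in its different splice forms, had 6 detected probes that did not move together. With array-set means removed their pairwise r ran from -0.30 to 0.32 over 40 arrays. On ILMN_2654314 the DBA mice gave 9.03, 9.07, 9.04 and 8.88 and the SJL mice 9.22, 9.44, 9.21 and 9.38. DBA lay below SJL without overlap, by a log2 difference of -0.31 (1.24-fold lower, adjusted p = 0.0150), with B6 between at 9.09, 9.12, 9.20 and 9.18. This call was lost on agreed arrays (-0.24, adjusted p = 0.244), by accession (-0.0073, adjusted p = 0.982) and in the methods' t-test (adjusted p = 0.0628). The brightest Kif1b probe, ILMN_2670778, averaged 12.64 in DBA, 12.72 in B6 and 12.87 in SJL and was called in no comparison.

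Probe ILMN_3034877 of Kif1b ran the other way between the same strains. It gave 8.01, 8.10, 7.58 and 7.50 in DBA, 7.69, 7.76, 7.89 and 7.80 in B6 and 6.96, 7.38, 7.39 and 7.04 in SJL. SJL lay below both other strains without overlap. DBA minus SJL was 0.61 (1.52-fold higher in DBA, adjusted p = 0.0147) and SJL minus B6 was -0.59 (1.51-fold lower in SJL, adjusted p = 0.0149). The first of these was lost without DBA replicate 1, at 0.54 (adjusted p = 0.0511), and in the methods' t-test (adjusted p = 0.138). With runs of 8 arrays as a block both were lost, at 0.51 (adjusted p = 0.0644) and -0.50 (adjusted p = 0.0618). On agreed arrays they were 0.84 (adjusted p = 0.0214) and -0.63 (adjusted p = 0.0590), and by accession 0.57 (adjusted p = 0.222) and -0.16 (adjusted p = 0.841).

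In Tg mice the same Kif1b probe was not low where SJL was plentiful. The SJL-richest mice lay at 7.43 to 8.06 (median 7.85) and the B6-rich mice at 7.09 to 7.52 (median 7.24). The B6-rich minus SJL-richest difference was -0.51 (adjusted p = 0.0682) and the 50% DBA minus SJL-richest difference -0.65 (adjusted p = 0.0535). Between later DBA-rich and SJL-rich mice the difference was -0.35, against 0.61 between inbred DBA and SJL, and the Tg minus inbred difference of these was -0.96 ± 0.28 (SE) with an adjusted p of 0.162. The opposite signs in inbred and Tg mice were therefore not shown to differ. The 50% DBA difference passed with an intensity trend and robust variances (adjusted p = 0.0301) and without 50% DBA replicate 2 (-0.85, adjusted p = 0.0127).

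**Figure D4:**
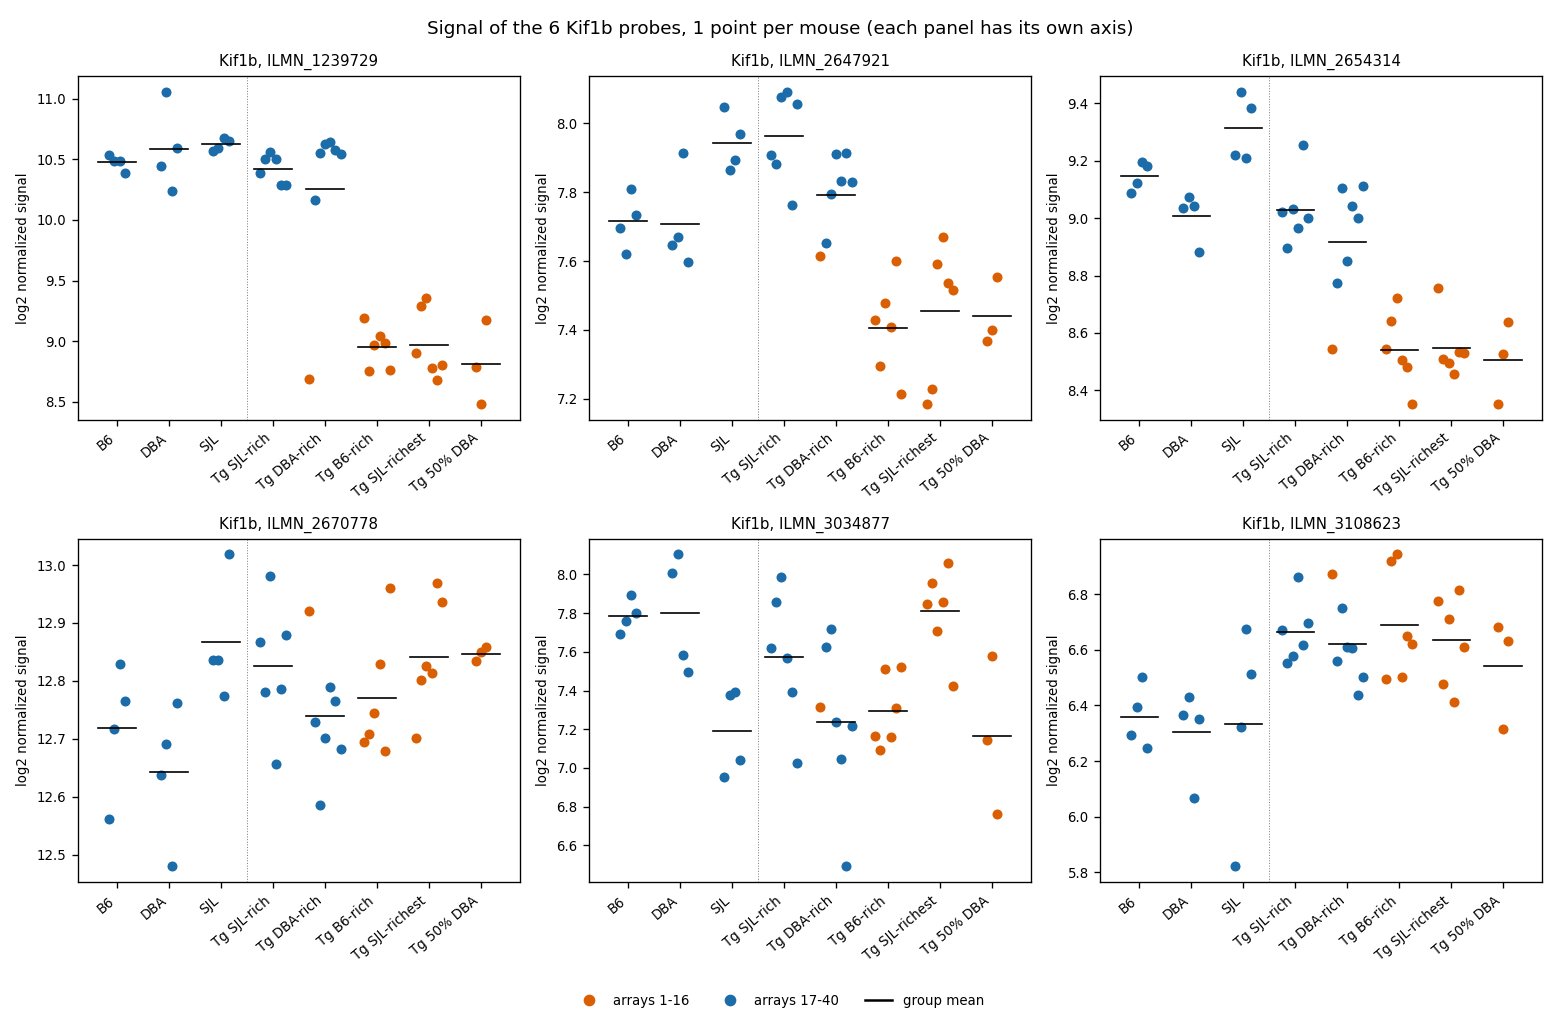
Log2 normalized signal of the 6 Kif1b probes in each mouse (1 point each), by strain or Tg background and coloured by array set, with a bar at the group mean and a separate axis per panel. Probes ILMN_1239729, ILMN_2647921 and ILMN_2654314 are lower on arrays 1 to 16 than on later ones, while ILMN_3034877 is lowest among inbred mice in SJL and is not low in the SJL-richest Tg mice.

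Kif21a, the kinesin-4 motor mutated in a human eye movement disorder, was low in the 50% DBA mice. Probe ILMN_2718716 gave 9.93, 9.93 and 9.89 in those 3 mice. The SJL-richest mice lay at 10.21 to 10.55 (median 10.40) and the B6-rich mice at 10.13 to 10.50 (median 10.37). The 3 mice lay below every mouse of both groups, by -0.47 against SJL-richest (adjusted p = 0.0106) and -0.42 against B6-rich (adjusted p = 0.0152). This was 1 call of 20 probes in each comparison, beside 2.55% and 4.79% of all probes.

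On the later arrays Kif21a did not follow DBA content. The inbred DBA mice gave 10.11, 10.25, 10.08 and 10.52 and the later DBA-rich mice lay at 10.12 to 10.43, overlapping B6, SJL and SJL-rich mice. On the earlier arrays the single DBA-rich mouse gave 10.04, below every SJL-richest and B6-rich mouse and above the 50% DBA mice. Leaving out replicate 3 of the 50% DBA group ended the call against SJL-richest (-0.45, adjusted p = 0.0513), and leaving out its replicate 2 or 3 ended the call against B6-rich (-0.43 and -0.41, adjusted p = 0.0589 and 0.0548). In the methods' t-test the adjusted p-values were 0.0610 and 0.0561, and with runs of 8 arrays as a block the differences were -0.39 (adjusted p = 0.0413) and -0.30 (adjusted p = 0.213). Oligodendrocyte markers were also lower in 50% DBA than in B6-rich mice for 5 of 6 genes, and for 0 of 6 against SJL-richest mice. Against B6-rich mice 1 of 6 astrocyte markers was lower and 0 of 5 choroid plexus markers passed, yet the summed choroid plexus signal did not overlap, at 17941 to 25287 in 50% DBA and 1267 to 17494 in B6-rich mice, with a median log2 difference of 2.28. In SJL-richest mice that sum ran from 5913 to 37336. The part of these markers in the Kif21a difference was not tested.

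The other Tg comparisons gave few or no calls among the 20 probes. Between later DBA-rich and SJL-rich mice 0 of 20 passed, with 8 at an unadjusted p under 0.05, beside 7.23% of all probes, and the median member difference was -0.13. Between B6-rich and SJL-richest mice 0 of 20 passed, with 3 unadjusted, beside 1.65%. Between later DBA-rich Tg and inbred DBA mice 0 of 20 passed, with 3 unadjusted, beside 1.87%. The trend and robust setting called 2, 1 and 0 probes in these 3 comparisons, and the run block 2, 0 and 1.

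Later SJL-rich Tg and inbred SJL mice differed on 4 of 20 probes, 2 higher and 2 lower in Tg, beside 15.9% of all probes. These groups differ in strain makeup as well as the transgene, since the Tg mice are 31% B6. The share of probes detected also differed without overlap, at 47.4% to 50.0% in SJL-rich Tg and 43.2% to 43.9% in inbred SJL mice. Its part in the calls was not tested. Both Kif3a probes were higher in the Tg mice, by 1.39 (adjusted p = 0.000909) and 0.34 (adjusted p = 0.00728). Kifap3 ILMN_2654532 gave 8.88 to 9.11 (median 9.03) in the Tg mice against 9.32, 9.42, 9.28 and 9.45 in SJL, a difference of -0.35 (adjusted p = 0.00666). Kif1b ILMN_2654314 was lower by a log2 difference of -0.29 (adjusted p = 0.0137), or -0.24 without SJL replicate 2 (adjusted p = 0.0553). These 2 groups share no run of 8 arrays, so a run block compares them only through other groups and cannot decide. With it 0 of the 4 passed, the Kif3a ILMN_2621148 difference being 1.41 (adjusted p = 0.383). By accession that difference was 0.18 (adjusted p = 0.838). In the methods' t-test neither Kif3a probe passed (adjusted p = 0.0589 and 0.0588).

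No member was related to Abeta40 at the adjusted threshold. In limma over 28 Tg mice 0 of 20 probes had a slope that passed, with 3 at an unadjusted p under 0.05 and a smallest adjusted p of 0.139, beside 1.51% of all probes. Kif3a ILMN_2621148 had a slope of -0.76 log2 units per log10 Abeta40 (adjusted p = 0.322). With background as a term its slope was 0.08 (adjusted p = 1.00). Within backgrounds 0 of 20 and 0% of all probes passed, with 2 and 604 at an unadjusted p under 0.05, and 0 of the 20 passed under any alternative tried for either slope. The Abeta40 means by background ran from 4.14 ± 0.27 (SD, n = 7) in DBA-rich to 4.99 ± 0.30 (SD, n = 6) in SJL-rich mice, so background and Abeta40 moved together.

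Some members differed by array set. Among Tg mice without DBA, 6 were on later and 12 on earlier arrays, and 7 of 20 probes had ranges that did not overlap between the sets, beside 14.4% of all probes. Kif1b ILMN_1239729 averaged 10.42 on later and 8.96 on earlier arrays, a difference of 1.46. The 3 Kifap3 probes were higher on later arrays by 0.92 (ILMN_1222022), 1.26 (ILMN_2654532) and 0.74 (ILMN_2954858). Kif1b ILMN_2647921 and ILMN_2654314 were higher by 0.53 and 0.48, and Kif5a ILMN_2645752 was lower by a difference of -0.33. A difference above 1 was seen for 2 of 20 probes and for 2.77% of all probes. Array set and background cannot be told apart in these 18 mice. Within the DBA-rich background the 1 earlier mouse was also below the 6 later ones, at 8.69 against 10.17 to 10.64 for Kif1b ILMN_1239729 and at 7.25 against 8.62 to 9.02 for Kifap3 ILMN_2654532.

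The order of group means rarely separated neighbours. For Kif3a ILMN_2621148 the later arrays ranked DBA, DBA-rich Tg, B6, SJL-rich Tg and SJL, and every neighbouring pair overlapped. For Kif5a ILMN_3065852 the order was B6, SJL, SJL-rich Tg, DBA-rich Tg and DBA, and only SJL-rich and DBA-rich Tg mice did not overlap.

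The tested genes whose profile was most like each member were found over 40 arrays with array-set means removed, taking each member by its brightest probe and other genes by any tested probe. For Kif3a they were Acsl6 on ILMN_1236666 (r = 0.88), which is not its brightest probe, and Gdf9 (0.87), both on the chromosome of Kif3a. For Kifap3 they were 1700025G04Rik (0.88), on the same chromosome as Kifap3, and Lrp4 (0.88). For Kif5a they were Prex2 (0.78) and Trim59 (0.76). For Kif5c they were Nprl3 and Zap70 (both 0.71), for Kif3b Foxred1 (0.70) and Lancl1 (0.68), and for Kif21a Zmynd11 (0.75) and Doc2b (0.74). Kif1b was closest to Mgll (0.70) and Hpca (0.69), Kif1a to Myo5a (0.63) and Slit3 (0.61), and Kif3c to Skp2 (0.61) and Tmem120a (0.59). The arrays share samples, strain structure and normalization, so these values are descriptions.

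The partners of these motors were read from lists of related genes. Of 4 kinesin light chains 3 were measured. For Klc1 the DBA minus B6 log2 difference was -1.28 and the DBA minus SJL difference -1.32, and Klc3 was higher by 0.86 and 0.99. These differences were larger in size than those of any Kif5 probe. Klc4 was higher in DBA than in SJL by 0.36. Of 31 other kinesin motors 6 were measured, and 0 passed in any of the 11 comparisons. The median DBA minus B6 difference was 0.09 over the 3 light chains, 0.07 over the measured adaptors, 0.02 over dynein and dynactin and -0.0095 over tubulins and microtubule-associated proteins, against 0.04 over all probes.

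Adaptors that tie kinesins to cargo had 16 of 22 genes measured. Their calls and those of the next lists stand beside 12.3%, 11.2% and 13.5% of all probes in the 3 inbred comparisons, in the order used above. In DBA against B6 2 of them were lower and 1 higher, in DBA against SJL 1 lower and 0 higher, and in SJL against B6 1 higher and 0 lower. Trak2, which links kinesin-1 to mitochondria, was lower in DBA than in B6 (log2 difference -0.31, adjusted p = 0.00716), as was Fez2 (-0.29), while the synaptic vesicle GTPase Rab3a was higher in DBA (0.30) and in SJL (0.38). Trak2 was also lower in DBA than in SJL (-0.37) and in later DBA-rich than SJL-rich Tg mice (-0.36, adjusted p = 0.00279). Dynein and dynactin subunits, which form the opposing motor, had 20 of 22 genes measured, with 1 lower for DBA against B6, 2 higher for DBA against SJL and 2 lower for SJL against B6. Dctn3 was lower in DBA than in B6 (-0.24) and in SJL than in B6 (-0.28), and Dynlrb1 and Dynll1 were higher in DBA than in SJL (0.53 and 0.26). Of 21 tubulins and microtubule-associated proteins 18 were measured, with 1 lower, 2 higher and 1 lower in the same 3 comparisons. Map7, a recruiter of kinesin-1 to microtubules, was lower in DBA than in B6 (-0.32), and Map2 and Map6 were higher in DBA than in SJL (0.49 and 0.21).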

How the data were processed

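Hippocampal RNA was measured on 40 one-colour arrays. The authors deposited a non-normalized table of signal intensity with a detection score that the file headers call a p-value but that behaves as 1 minus it, and a value table of linear signal. The software that made them is not stated by the labels. Columns of the first were matched through the number that ends each sample title and of the second by accession.

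Intensities of the 40 arrays were background-corrected from the detection p-values, offset by 16, quantile-normalized and put on the log2 scale by neqc (limma 3.58.1, R 4.3.3, statmod 1.5.0). The 13589 probes tested reached a detection p of 0.01 or less in 4 or more arrays, 9575 of them in all 40. Groups were compared with lmFit and eBayes on all tested probes with Benjamini-Hochberg adjustment at 0.05; every adjusted p is from limma unless another test is named. Values in the report are log2 normalized signals, fold changes are 2 to the power of the log2 difference, and levels of different probes are not comparable. A call in the lists is from the brightest tested probe of a gene. Replicates are separate mice per the labels, and replicate numbers only name arrays.

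Platform annotation gave 1 symbol for 23978 probes and none for 1719, and 23962 were matched to current symbols. Members, lists and tests were chosen with earlier results of these data known. Every probe of a member was named, with list genes that passed and the 2 most alike genes per member; neighbours of Kif3a were picked once values were known. The number of arrays limits the precision. Alternatives covered the value table, agreed arrays, other filters and normalizations, trend and robust variances, the t-test of the series' methods, runs of 8 arrays as a block (the files name no slide) and each array left out. Code was tested on simulated data. Probe sequences were not used here.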

Additional observations from a re-analysis of the deposited data

Results flagged for a closer look

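Of 140 probe and group combinations of 4 to 10 mice, 11 held a mouse far from the rest of its group by Dixon's ratio, which chance gives in about 1 of 20. For Kif3a ILMN_2621148, B6-rich Tg replicate 1 was lowest at 8.54 with the next mouse at 10.32, and SJL-rich Tg replicate 4 was lowest at 8.70 with the next at 10.10. Both lie in the span of the inbred SJL mice.

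The single DBA-rich Tg mouse on the earlier arrays, replicate 1, was the lowest of its group on 3 probes: Kifap3 ILMN_2654532 at 7.25, Kifap3 ILMN_2954858 at 9.76 and Kif1b ILMN_1239729 at 8.69. These probes also differ between array sets in the mice without DBA.

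Other single mice were closer to their groups. Kif5a ILMN_2645752 was lowest in SJL-rich Tg replicate 3 at 7.76. Kif3c ILMN_2590729 was lowest in DBA replicate 2 at 9.10. Kifap3 ILMN_1222022 was highest in B6 replicate 1 at 7.91 and lowest in DBA replicate 3 at 7.34. Kifap3 ILMN_2954858 was lowest in SJL replicate 3 at 11.15, and Kif1b ILMN_2654314 was highest in SJL-richest Tg replicate 1 at 8.76.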

How the results depend on the processing

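Single kinesin probes gave 2900 values under the alternatives. Of these, 2797 stayed on their side of the threshold, 69 lost a call, 30 gained a call and 4 reversed. Direction was compared only where a probe was called in the report or under the alternative. All 4 reversals came from the value table read by accession: SJL minus B6 for Kif3a (0.21 on ILMN_2621148 and 0.058 on ILMN_2765513) and DBA minus SJL for Kifap3 (0.16 on ILMN_2654532 and 0.18 on ILMN_2954858). The count of the 20 probes called moved as follows. By accession it was 0 for each inbred pair and 1 for SJL-rich Tg against SJL. On agreed arrays it was 2 for DBA against B6, 3 for DBA against SJL and 1 for SJL against B6. The t-test called 4 for DBA against SJL, 1 for DBA-rich against SJL-rich Tg, 2 for SJL-rich Tg against SJL and 0 for 50% DBA against either Tg group. Trend and robust variances called 2 for DBA-rich against SJL-rich Tg, 2 for 50% DBA against SJL-richest and 1 for B6-rich against SJL-richest. Runs of 8 as a block called 2 for DBA-rich against SJL-rich Tg, 0 for 50% DBA against B6-rich, 1 for DBA-rich Tg against DBA and 0 for SJL-rich Tg against SJL. An array set term over all Tg mice called 1 for DBA-rich against SJL-rich, and requiring detection on every array called 2 for 50% DBA against SJL-richest. The causes were not tested. Leaving out single arrays gave 2 to 5 calls for DBA against B6, 5 to 9 for DBA against SJL, 3 to 4 for SJL against B6, 0 to 2 and 0 to 1 for 50% DBA against SJL-richest and B6-rich, and 3 to 6 for SJL-rich Tg against SJL. No paired analysis was possible because the labels give no shared replicate numbers.

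Over all probes tested, the calls by accession were 78, 85 and 0 and on agreed arrays 986, 892 and 824 for the 3 inbred pairs (DBA with B6, DBA with SJL, SJL with B6), where 1672, 1523 and 1841 passed in the report. Runs of 8 as a block left 310 of 982 for DBA-rich against SJL-rich Tg, 15 of 2164 for SJL-rich Tg against SJL and 2 of 205 for the Abeta40 slope, which had 504 with an array set term. SJL-rich Tg and inbred SJL mice share no run, and only some DBA-rich mice share a run with SJL-rich mice. For these groups the blocked counts therefore do not decide whether the calls depend on runs.

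Groups of 3 to 7 mice, 2 conflicting orders of the inbred arrays, and an array set that holds most Tg backgrounds on 1 side limit these results. Signals of dim probes such as Kif3b and Kif1b ILMN_3108623 lie nearer the background than the others.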

Other observations

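Some subunits of the dynein and dynactin complex, which carries cargo opposite to most kinesins, were called between Tg and inbred mice of the later arrays. In SJL-rich Tg against inbred SJL mice 4 of 20 measured genes were higher and 1 lower, beside 15.9% of all probes. Dctn1 (log2 difference 0.52), Dctn3 (0.27), Ndel1 (0.26) and Dync1li2 (0.21) were higher and Dynlt3 was lower (-0.35). In DBA-rich Tg against inbred DBA mice 2 of 20 were higher, beside 1.87% of all probes: Dctn1 (0.55, adjusted p = 0.000376) and Dync1li2 (0.27, adjusted p = 0.0364). In the first comparison Tuba1a, Tuba4a and Stmn1 were lower by log2 differences of -0.28, -0.43 and -0.63. Tg and inbred mice also differed in strain makeup and in their runs of arrays and, in the first comparison, in the share of probes detected. With such runs as a block 15 of all probes passed in the first comparison, whose groups share no run.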
